A study of Mus musculus with 6 samples.

Results

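The genes described here are 41 genes that mark neuron subtypes of the hippocampus. They were found by symbol in the deposited count table, which holds 37411 genes, and every one of them was present. By role, 3 make or package GABA, 6 are transcription factors of GABAergic neurons, 8 encode neuropeptides, 3 encode calcium-binding proteins, 3 are other interneuron genes (Erbb4, Htr3a and Ndnf), and 1 is reelin. On the glutamatergic side 2 are vesicular glutamate transporters, 8 are transcription factors and 4 mark hippocampal fields. Rbfox3, the gene of the pan-neuronal protein NeuN, and the Cajal-Retzius cell genes Lhx1 and Trp73 complete the set.

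RNA was sequenced from primary hippocampal neurons that had been prepared from newborn (P0) CD-1 IGS mice, an outbred stock, and kept in culture for 16 days. Cultures were exposed for 30 min to 50 µM forskolin, an activator of adenylyl cyclase, or to the same volume of DMSO, its solvent; the labels name no genetic alteration. DMSO libraries are numbered 1 to 3 and forskolin libraries 4 to 6. The labels do not say whether the libraries of a group came from separate cultures or how many pups were pooled, so p-values measure the spread between these libraries, which may be technical.

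As background, most neurons of the hippocampus are glutamatergic. They load their vesicles with glutamate through Slc17a7 (VGLUT1) or Slc17a6 (VGLUT2), and dentate granule cells, CA1 and CA3 pyramidal cells are told apart by transcription factors and field markers such as Prox1 and Wfs1. The GABAergic interneurons are fewer and more varied: all make GABA with the decarboxylases Gad1 and Gad2 and load it through Slc32a1 (VGAT), and their subtypes are named for a neuropeptide or calcium-binding protein that they hold. Cajal-Retzius cells are early-born neurons that secrete reelin, which interneurons of the mature hippocampus also secrete.

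Total counts ran from 28342764 to 47548379 per library. Forskolin library 6 lay nearer to the DMSO libraries than to the other libraries of its group: across genes, its correlation in log2 CPM (counts scaled to a fixed library total, with TMM factors) was 0.983 with DMSO library 3, 0.943 with library 4 and 0.940 with library 5, while libraries 4 and 5 had a correlation of 0.987 with each other. Microglial, oligodendrocyte lineage and pan-neuronal genes divided the libraries in the same way, while the sums of 12 astrocyte genes (8652 to 9578 CPM) and 11 vascular and meningeal genes (106 to 311 CPM) did not. Single astrocyte genes, chosen after their values were seen, did so in both directions: the water channel gene Aqp4 was at 675 and 862 CPM in libraries 4 and 5 and at 212 to 313 CPM in the other libraries, and the glutamine synthetase gene Glul at 867 and 903 CPM and at 1496 to 1682 CPM. The summed level of 12 microglial genes was 35.3, 24.9 and 23.0 CPM in the DMSO libraries, 227 and 377 CPM in libraries 4 and 5, and 25.1 CPM in library 6; that of 12 oligodendrocyte lineage genes was 946 to 1023 CPM with DMSO and 1220, 1685 and 765 CPM with forskolin. The 14 pan-neuronal genes summed to 3960, 4792 and 5209 CPM with DMSO and to 3025, 3352 and 5014 CPM with forskolin, so libraries 4 and 5 were lower than every other library. Mitochondrial ribosomal RNA took 14.03%, 23.7% and 19.8% of counts with DMSO and 29.6%, 33.3% and 26.9% with forskolin, so that it was higher in every forskolin library, library 6 included. In bulk RNA fewer cells of a type and less RNA per cell cannot be told apart, and the part of these shifts in the results was not tested. Results are therefore given with and without library 6.

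In the DMSO libraries the set spanned abundant genes and genes at the limit of counting, and the levels that follow are CPM per kilobase of the longest transcript, mean ± SD over 3 libraries. Highest were Cck, the cholecystokinin gene, at 322 ± 72.6, and Slc17a7 at 304 ± 19.2, which overlapped between libraries. Sst, the somatostatin gene, followed at 166 ± 73.5, and then Gad1 at 79.7 ± 14.5 and Calb2, the calretinin gene, at 78.4 ± 8.29, which did not differ beyond their spread. The pyramidal-lineage factors Neurod6 (42.5 ± 8.67) and Bhlhe22 (30.7 ± 4.20) were the most abundant transcription factors of the set on this scale. Slc17a6, the transporter of subcortical and immature glutamatergic neurons, stood at 1.52 ± 0.589, far under Slc17a7. At the bottom were Pdyn, the dynorphin precursor (0.634 ± 0.460), Dlx6 (0.464 ± 0.210), Crh, the corticotropin-releasing hormone gene (0.186 ± 0.0147), and Lhx1 (0.00243 ± 0.00421).

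**Figure D1:**
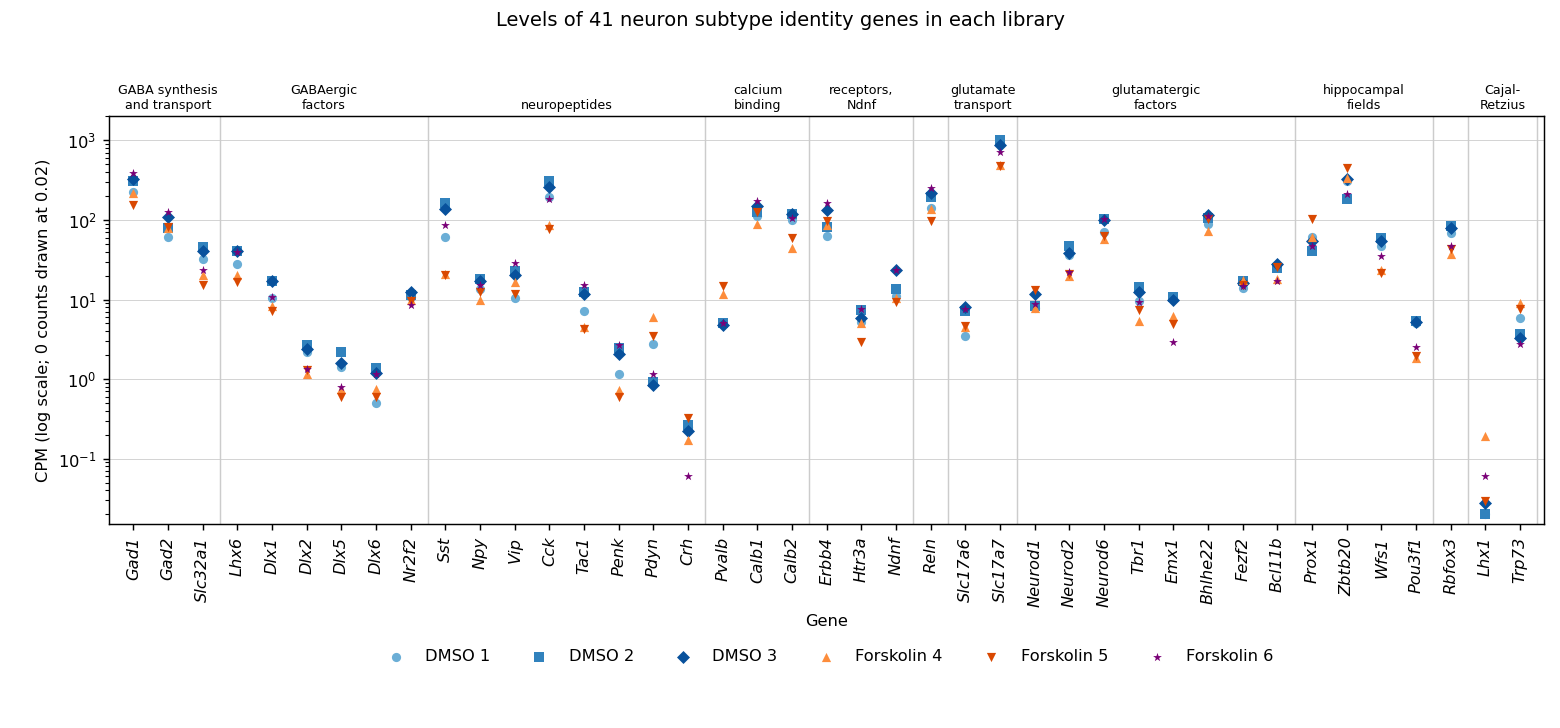
Level of each of the 41 genes in each library, in CPM on a log axis, with genes ordered by role along the x axis; blue symbols are DMSO libraries 1 to 3, orange triangles forskolin libraries 4 and 5, and the purple star forskolin library 6, and values of 0 counts are drawn at 0.02. Slc17a7, Gad1 and Cck lie near the top, Crh and Lhx1 at the bottom, and the orange triangles lie lowest for Sst, Cck and Slc32a1 and highest for Pvalb and Pdyn.

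The subtype genes varied more between DMSO libraries than genes did in general: the median coefficient of variation was 19.9% over the 39 of them that passed the filter on low counts and 12.7% over the 16233 genes that passed it. Pdyn (72.5%), Dlx6 (45.3%), Sst (44.2%), Ndnf (40.0%) and Erbb4 (39.8%) varied most. Pvalb, the parvalbumin gene, Pou3f1 and Emx1 varied least, at 3.22%, 3.22% and 3.27%. DMSO library 1 held the highest value of none of the 39 genes over all 6 libraries, and library 2 held the highest value of 17.

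Summed per kilobase, the transmitter genes leaned to the glutamatergic side in every library, and with geometric means, which give Slc17a6 the weight of Slc17a7, they leaned to the GABAergic side in every library (log2 ratios of 0.17 to 0.47). Gad1, Gad2 and Slc32a1 made up 22.1%, 26.2% and 29.9% of the summed transmitter gene level per kilobase in the DMSO libraries, and 33.8%, 28.5% and 36.9% in forskolin libraries 4, 5 and 6, the remainder being Slc17a6 and Slc17a7. On the log2 scale the ratio of the GABAergic to the glutamatergic sum was -1.82, -1.49 and -1.23 with DMSO and -0.97, -1.33 and -0.78 with forskolin, a difference of 0.49 between means of -1.51 ± 0.30 and -1.02 ± 0.28 (SD, n = 3 each). The groups overlapped, since library 5 lay within the DMSO range, and no p-value is given because the genes of the score were chosen with results known. The difference was 0.084 with geometric means in place of sums and 0.22 with the trend of counts on GC content removed, and it was 0.36 without library 6.

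**Figure D2:**
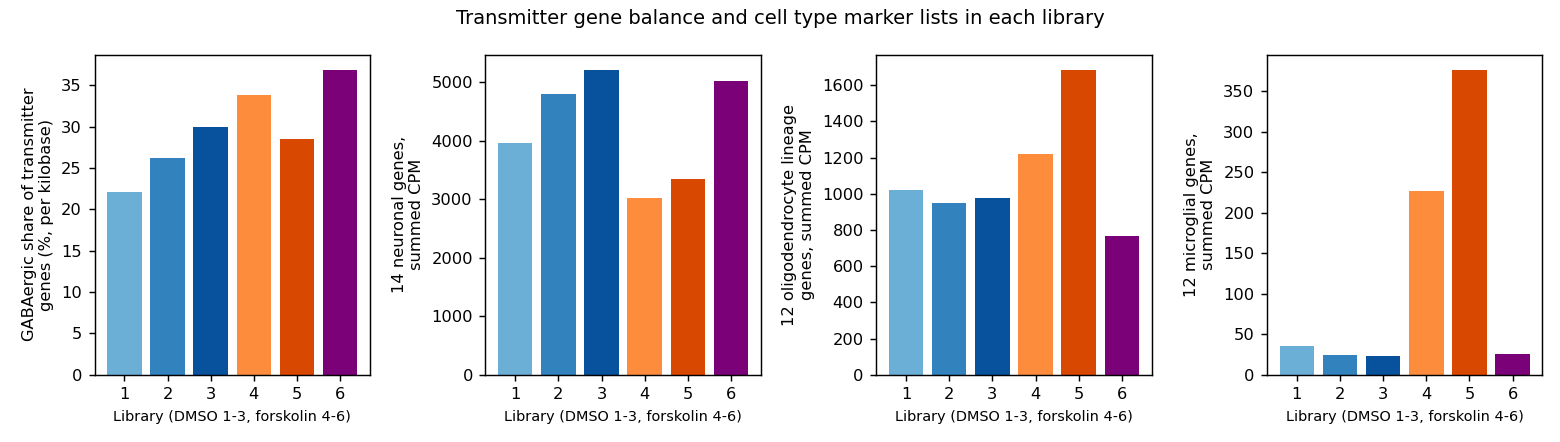
Bar charts over the 6 libraries (x axis: libraries 1 to 3 DMSO, 4 to 6 forskolin): the GABAergic share of the transmitter genes in percent, and the summed CPM of 14 pan-neuronal, 12 oligodendrocyte lineage and 12 microglial genes. The GABAergic share stays under 37% in every library, and libraries 4 and 5 have the lowest pan-neuronal and the highest microglial sums; library 6 lies within the DMSO range in those charts but has the highest GABAergic share and the lowest oligodendrocyte lineage sum.

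The genes that define Cajal-Retzius cells were low, some near the limit of counting, and reelin was well expressed. Lhx1, a LIM homeobox gene of these cells, had 0, 0 and 1 counts with DMSO and 9, 1 and 2 with forskolin, and was not tested. Trp73, the p73 gene, was at 5.84, 3.71 and 3.31 CPM with DMSO and at 9.01, 7.52 and 2.75 CPM with forskolin. Libraries 4 and 5 were above every DMSO library and library 6 was below them, so the groups overlapped; the log2 fold change was 0.59 ± 0.46 (SE; edgeR, adjusted p = 0.470). Of 4 other Cajal-Retzius genes Lhx5 had 3 counts or fewer in every library and Nhlh2 had 36 to 78 counts, and the 4 together summed to between 1.58 and 2.21 CPM. Set against the average DMSO level, 6 choroid plexus genes had log2 medians of 0.16, -0.10 and -0.30 in DMSO libraries 1 to 3. Forskolin libraries 4 to 6 gave 0.47, 0.34 and -0.33. These medians ranked the libraries as Trp73 did, while the summed CPM of the 6 genes (141 to 214) did not. Without library 6, Folr1 of that list and Trp73 were called higher, as were 16.5% of all tested genes. Reln itself was at 140, 193 and 218 CPM with DMSO and 139, 96.7 and 251 CPM with forskolin. Library 5 was lowest and library 6 highest, and the log2 fold change was -0.18 ± 0.35 (edgeR, adjusted p = 0.783). These values do not tell in which cells reelin was made or Trp73 was expressed.

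Against forskolin the set as a whole gave few calls. With edgeR's quasi-likelihood test, an adjusted p under 0.05 was reached by 3 of the 39 tested genes as lower (Neurod2, Pou3f1 and Rbfox3) and by 0 as higher, where 1.34% of all tested genes were called lower and 0.172% higher. Genes past that threshold are referred to as called. At an unadjusted p under 0.05 there were 12 lower and 1 higher, against 11.7% and 10.6% of all tested genes, and DESeq2 called 10 lower and 1 higher (Pvalb), against 5.83% and 4.71%. Every forskolin library lay below every DMSO library for 12 of the 39 genes (30.8%), and above for 0, where 16.2% and 10.3% of all tested genes did so. The log2 fold change was negative for 28 genes and positive for 11, with a median of -0.31 against 0.02 over all tested genes. When libraries were scaled to the 14 pan-neuronal genes, which moved the median of all tested genes to 0.41, the median of the set was 0.03, with 18 negative and 21 positive, and 0 were called in either direction by edgeR (9 lower and 3 higher at an unadjusted p under 0.05, where 1.08% and 19.9% of all tested genes were). None of the 41 genes is among the 132 genes of the authors' deposited table, whose smallest log2 fold change is 1.501.

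Where each forskolin library stood differed. Of the 39 genes, libraries 4, 5 and 6 put 28, 24 and 14 below the whole DMSO range; of all tested genes they put 38.1%, 39.3% and 35.3% there. In library 6 the 22 tested GABAergic genes were spread on both sides, with 5 below, 9 within and 8 above the DMSO range. Of the 14 glutamatergic genes 7 lay below, 7 within and 0 above. Of all tested genes 35.3% lay below, 35.2% within and 29.5% above. The 22 take in the neuropeptide and calcium-binding genes, of which Cck and Calb1 are also expressed by glutamatergic neurons. Transcript GC content was 36.8% (Calb1) to 53.4% (Htr3a) for the 8 GABAergic genes above the range. It was 45.3% (Nr2f2) to 61.9% (Slc32a1) for the 5 below it. For the 7 glutamatergic genes below, it was 50.1% (Bcl11b) to 66.8% (Emx1). Its part in this contrast was not tested. Without library 6, 18 of the 39 were called lower and 2 higher (edgeR, adjusted p under 0.05), where 17.1% of all tested genes were called lower and 16.5% higher. The forskolin group then held 2 libraries. With libraries 4 and 5 left out instead, 1 was called lower and 0 higher, against 0.519% and 0.0354% of all tested genes. Settings that weight or scale the libraries differently gave other counts. With limma's library quality weights 21 were called lower and 3 higher, against 20.9% and 21.0%, and with the GC trend removed as well as library 6 left out 25 and 3, against 29.2% and 12.5%. Scaling to pan-neuronal genes without library 6 gave 5 and 8, against 0.950% and 43.0%. Of the milder settings, RLE factors gave 1 lower and 0 higher (0.696% and 0.148%), library size alone 4 and 0 (1.82% and 0.191%), no filter 2 and 0 (0.623% and 0.173%) and a mean CPM of at least 1 gave 3 and 0 (1.51% and 0.179%).

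**Figure D3:**
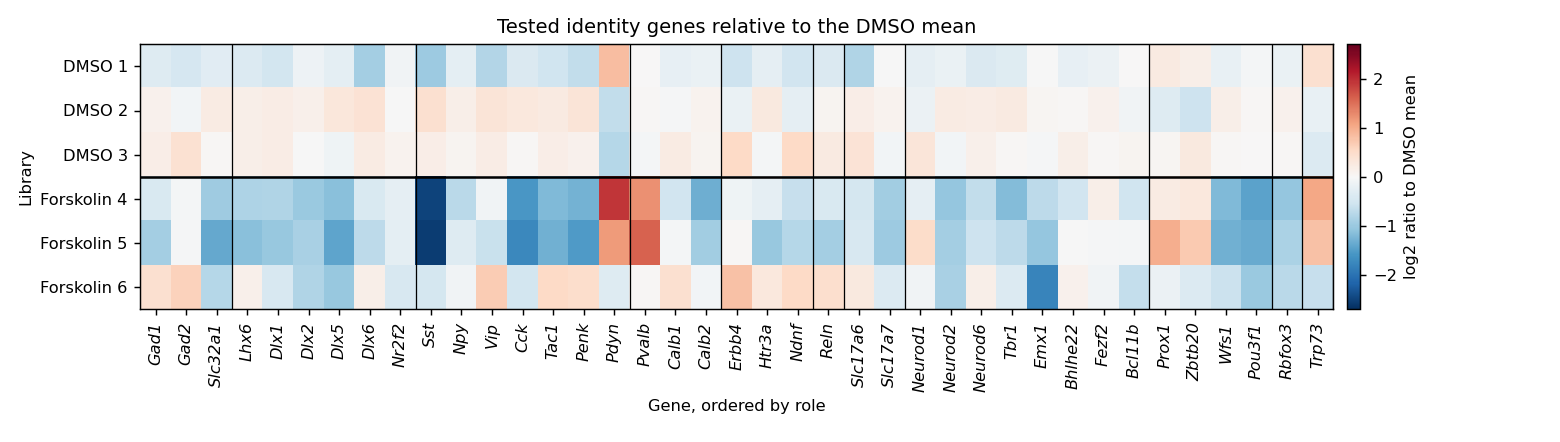
Heat map of the 39 tested genes (columns, ordered by role) in the 6 libraries, coloured by the log2 ratio of each value to the DMSO mean, with blue lower and red higher. Libraries 4 and 5 are blue for most genes and darkest for Sst, with Pdyn and Pvalb red, and library 6 is bluest for Emx1, followed by Dlx5, Pou3f1, Neurod2, Dlx2, Slc32a1 and Rbfox3.

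Among glutamatergic genes, the largest loss past the threshold was in Pou3f1, a POU-domain factor of CA1 pyramidal neurons. Its levels were 5.03, 5.35 and 5.27 CPM with DMSO and 1.85, 1.97 and 2.54 CPM with forskolin. The groups stood well apart, library 6 included, and Pou3f1 fell by 1.30 on the log2 scale (SE 0.22, edgeR adjusted p = 0.0458). Neurod2, a basic helix-loop-helix factor of differentiating and mature glutamatergic neurons, was at 35.8, 47.0 and 38.5 CPM with DMSO and at 19.6, 21.2 and 22.1 CPM with forskolin. It fell by 0.95 (SE 0.14, edgeR adjusted p = 0.0371), and the forskolin libraries differed from each other less than the DMSO libraries did. Rbfox3, which nearly all mature neurons express, was at 69.2, 84.5 and 80.2 CPM with DMSO and 37.8, 42.8 and 47.2 CPM with forskolin. It fell by 0.87 (SE 0.13, edgeR adjusted p = 0.0392), again with no overlap. On GRCm38 these genes lie at chr4:124656807-124660655 (Pou3f1), chr11:98325415-98329648 (Neurod2) and chr11:118489762-118911597 (Rbfox3). The share of mitochondrial ribosomal RNA, given above, was higher in every forskolin library. Among the DMSO libraries it was lowest in library 1, where these 3 genes were lowest too. All 3 transcripts are rich in GC, as given below. The part of that share and of GC content was not tested beyond the fit with the GC trend removed. The exons of Pou3f1 overlap those of Gm2164 on the opposite strand. All 3 calls ended when any 1 library other than library 6 was left out, where no gene of the whole table was called by edgeR (942 to 1537 lower and 785 to 1679 higher at an unadjusted p under 0.05) and the log2 fold changes with 1 library left out ran from -1.47 to -1.21 for Pou3f1, -1.01 to -0.81 for Neurod2 and -0.97 to -0.79 for Rbfox3. They also ended when the GC trend was removed (log2 fold changes of -0.49, -0.59 and -0.52) and under scaling to pan-neuronal genes, and only that of Neurod2 was kept with RLE size factors. The log2 fold changes of Pou3f1, Neurod2 and Rbfox3 were -0.95, -0.56 and -0.49 with that scaling and -1.28, -0.93 and -0.85 with RLE factors. Without library 6 all 3 were called.

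The main glutamate transporter of these cultures showed the pattern less evenly. Slc17a7 was at 923, 1001 and 885 CPM with DMSO and at 487, 475 and 723 CPM with forskolin. Library 6 lay between the other forskolin libraries and the DMSO libraries, and the groups did not overlap; the log2 fold change was -0.74 ± 0.20 (edgeR, adjusted p = 0.126). Slc17a6 was at 3.53, 7.15 and 8.16 CPM with DMSO and at 4.52, 4.64 and 7.53 CPM with forskolin, with the forskolin values inside the DMSO range (log2 fold change -0.18 ± 0.37, edgeR adjusted p = 0.799). Without library 6, Slc17a7 was called lower at -0.98.

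Of the other glutamatergic factors, Emx1, a homeobox gene of the dorsal telencephalon, was at 10.1, 10.6 and 9.99 CPM with DMSO and at 6.22, 4.94 and 2.90 CPM with forskolin. Here library 6 was the lowest, unlike for most of the set, and with libraries 4 and 5 left out, which leaves 1 forskolin library, Emx1 was the only gene of the set called (log2 fold change -1.78); with all libraries it was -1.13 ± 0.29 (edgeR, adjusted p = 0.112). Tbr1, a T-box factor of early-born glutamatergic neurons, was at 9.59, 14.3 and 12.4 CPM with DMSO and at 5.31, 7.35 and 9.35 CPM with forskolin, which came near to overlap (-0.72 ± 0.26, edgeR adjusted p = 0.181). Neurod1, Neurod6, Bhlhe22, Fezf2 and Bcl11b had overlapping groups and log2 fold changes between -0.40 and 0.09, and none passed the threshold with all libraries in edgeR. Without library 6, Emx1 (-0.89), Tbr1 (-0.96) and Neurod6 (-0.63, from -0.30 with all libraries) were called lower.

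In the counts as deposited the hippocampal field markers did not move as one. Wfs1, the wolframin gene enriched in CA1 pyramidal cells, was at 46.6, 59.4 and 54.3 CPM with DMSO and at 23.4, 21.5 and 35.6 CPM with forskolin, without overlap (-0.99 ± 0.21, edgeR adjusted p = 0.0780). Prox1, the homeobox gene that defines dentate granule cells, ranged from 40.95 to 61.5 CPM with DMSO and from 46.9 to 103 CPM with forskolin (0.42 ± 0.30, edgeR adjusted p = 0.433). Zbtb20, a zinc-finger factor of hippocampal pyramidal and granule neurons that astrocytes also express, ranged from 185 to 329 CPM and from 214 to 449 CPM (0.28 ± 0.32, edgeR adjusted p = 0.632). Both were highest in library 5 and overlapped between groups. Wfs1 was called lower without library 6 (-1.27). Prox1 and Zbtb20 were not called unless libraries were also scaled to pan-neuronal genes. Both were then called higher, as were 43.0% of all tested genes. Transcript GC content was 57.8% for Wfs1 and 63.9% for Pou3f1, against 45.3% for Prox1 and 43.0% for Zbtb20. Correcting for GC content narrowed the range of the 4 field markers from -1.30 to 0.42 down to -0.67 to 0.20. In that fit 0 of them had an unadjusted p under 0.05 (edgeR). When library 6 was left out as well, Wfs1 and Pou3f1 were called lower, as were 29.2% of all tested genes.

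Genes of GABA synthesis and of GABA loading stood apart within the same libraries in the counts as deposited, and less so once the GC trend was removed. Slc32a1 was at 32.2, 46.0 and 40.5 CPM with DMSO and at 20.2, 15.2 and 23.3 CPM with forskolin, without overlap (log2 fold change -1.02 ± 0.20, edgeR adjusted p = 0.0695). Gad1 was at 227, 310 and 324 CPM with DMSO and at 216, 152 and 388 CPM with forskolin, and Gad2 at 60.6, 78.5 and 111 CPM and at 79.7, 81.0 and 128 CPM. Library 6 had the highest Gad1 and Gad2 of all libraries while its Slc32a1 was below every DMSO library. Gad1 gave -0.19 ± 0.34 (edgeR, adjusted p = 0.769) and Gad2 0.21 ± 0.28 (edgeR, adjusted p = 0.678). The log2 ratio of Gad1 to Slc32a1 CPM, a difference that does not depend on library scaling, was 2.82, 2.75 and 2.999 with DMSO and 3.42, 3.33 and 4.06 with forskolin, without overlap; this pair was chosen after its values were seen. GC content of the transcripts was 61.9% for Slc32a1, 47.3% for Gad1 and 44.1% for Gad2, and the log2 fold changes with the GC trend removed were -0.38 for Slc32a1, -0.30 for Gad1 and -0.019 for Gad2, which leaves Slc32a1 and Gad1 close together. Without library 6, Slc32a1 was called lower (-1.18) and Gad1 (-0.65) and Gad2 (-0.068) were not. Exons of Slc32a1 overlap those of Gm14205 on the opposite strand, and the sources used here do not state the strand setting of the counting.

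The transcription factors of GABAergic neurons all had negative log2 fold changes, a direction that flipped for Dlx6 and Nr2f2 under scaling to pan-neuronal genes, and 0 of 6 passed the threshold in edgeR; 3 were lower at an unadjusted p under 0.05 and DESeq2 called 2 lower, where 11.7% and 5.83% of all tested genes were. Dlx1, Dlx2, Dlx5 and Dlx6 are distal-less homeobox genes that set the fate of forebrain interneurons and lie in neighbouring pairs on chromosomes 2 and 6. Dlx2 was at 2.22, 2.69 and 2.41 CPM with DMSO and at 1.17, 1.29 and 1.34 CPM with forskolin (-0.94 ± 0.23, edgeR adjusted p = 0.1004). Dlx5 was at 1.44, 2.17 and 1.60 CPM with DMSO and at 0.743, 0.588 and 0.806 CPM with forskolin (-1.28 ± 0.29, edgeR adjusted p = 0.0887). For both, all forskolin libraries, library 6 included, lay below all DMSO libraries. Dlx1 was at 10.3, 16.9 and 16.9 CPM and at 8.37, 7.17 and 10.8 CPM (-0.74 ± 0.26, edgeR adjusted p = 0.172), with library 6 just above DMSO library 1. Nr2f2 (COUP-TFII), a nuclear receptor of caudally derived interneurons, was at 10.8, 11.4 and 12.3 CPM and at 9.75, 9.55 and 8.54 CPM, a small shift without overlap (-0.31 ± 0.15, edgeR adjusted p = 0.266). Lhx6, a LIM homeobox gene of interneurons from the medial ganglionic eminence, overlapped, as did Dlx6. Exons of Dlx1 and Dlx6 overlap those of the antisense genes Dlx1as and Dlx6os2; in all, 12 of the 41 genes share exon sequence with another gene, Nr2f2, Penk, Reln, Prox1 and Trp73 among them. Without library 6, Lhx6, Dlx1, Dlx2 and Dlx5 were called lower.

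The neuropeptide genes were the most uneven. Somatostatin, Vip, Tac1 and Cck are shown with their promoters because cAMP acts on many genes through the cAMP response element, whose full form is TGACGTCA and whose short form is TGACG. In RefSeq windows on GRCm38.p6 from 250 bases before to 50 bases after each start, searched on both strands, the full form was present in 1.79% of 32851 windows and the short form, alone or within the full form, in 20.8%. Counted per gene, with any of its windows, the shares of 27025 genes were 2.03% and 23.0%. Of the subtype genes 31 had a window; Sst alone held the full form, and 9 held the short form (Cck, Dlx2, Gad2, Lhx1, Neurod2, Slc17a6, Sst, Tac1 and Vip). Capitals mark the match, and CGTCA is the short form on the other strand. The first stretch is chr16:23890865-23890912 on the minus strand, followed by chr10:5639119-5639163 (plus), chr6:7554998-7555042 (plus) and chr9:121495717-121495761 (minus).
Sst: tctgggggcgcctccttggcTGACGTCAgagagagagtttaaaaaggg
Vip: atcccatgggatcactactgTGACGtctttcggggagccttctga
Tac1: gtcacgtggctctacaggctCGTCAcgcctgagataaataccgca
Cck: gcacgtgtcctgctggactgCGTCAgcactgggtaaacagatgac
The matches lie 48 to 41, 79 to 75, 43 to 39 and 47 to 43 bases before the start; Tac1 has another short form 197 to 193 bases before it. The windows of Npy and Pdyn held no match, and a match is a description of the letters only. Dlx5, Dlx6, Penk, Crh, Calb1, Calb2, Htr3a, Ndnf, Bhlhe22 and Pou3f1 had no entry in the set of windows used here, which does not mean that they lack an annotated start.

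None of the 4 genes printed passed the threshold at 30 min with all libraries in edgeR; DESeq2 called Cck lower, and limma with library quality weights called Sst, Cck and Tac1 lower. Sst was at 60.6, 163 and 137 CPM with DMSO and at 21.1, 20.1 and 85.8 CPM with forskolin. Libraries 4 and 5 were the lowest and library 6 lay within the wide DMSO range (log2 fold change -1.504 ± 0.65, edgeR adjusted p = 0.233); without library 6, Sst was called lower at -2.56. Cck, made by a class of basket cells and at lower levels by pyramidal cells, was at 197, 312 and 262 CPM with DMSO and at 86.8, 77.3 and 183 CPM with forskolin, without overlap although library 6 came close to DMSO library 1 (-1.15 ± 0.36, edgeR adjusted p = 0.15002); without library 6 it was called lower at -1.66. Relative to Gad1, Sst gave log2 ratios of -1.90, -0.93 and -1.24 with DMSO and -3.36, -2.92 and -2.18 with forskolin. The same ratio for Cck was -0.21, 0.01 and -0.31 with DMSO and -1.32, -0.98 and -1.09 with forskolin. Both ratios were lower in every forskolin library than in every DMSO library, library 6 included; the 2 pairs were chosen after their values were seen. GC content is 56.0% for Sst, 56.9% for Cck and 47.3% for Gad1, and after removal of the GC trend their log2 fold changes were -1.24, -0.87 and -0.30.

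Vip, which marks interneurons that contact other interneurons, was at 10.3, 22.8 and 20.5 CPM with DMSO and at 16.7, 11.8 and 28.8 CPM with forskolin (0.09 ± 0.40, edgeR adjusted p = 0.910). Tac1, the substance P precursor, was at 7.18, 12.3 and 11.8 CPM and at 4.50, 4.20 and 15.3 CPM (-0.39 ± 0.53, edgeR adjusted p = 0.691). For both, library 6 was the highest of all libraries. Npy, the neuropeptide Y gene, was at 13.4, 18.1 and 17.0 CPM with DMSO and at 9.77, 12.6 and 15.1 CPM with forskolin, with only library 6 inside the DMSO range (-0.37 ± 0.21, edgeR adjusted p = 0.323). Penk, the enkephalin precursor, was at 1.16, 2.46 and 2.08 CPM and at 0.722, 0.588 and 2.69 CPM (-0.52 ± 0.63, edgeR adjusted p = 0.648). Tac1 and Penk shared an order in which libraries 4 and 5 were lowest and library 6 highest, and both were called lower without library 6.

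Pdyn ran the other way. It was at 2.78, 0.919 and 0.842 CPM with DMSO and at 6.07, 3.50 and 1.16 CPM with forskolin. Libraries 4 and 5 were above every DMSO library, but DMSO library 1 was above library 6, and the log2 fold change of 1.25 ± 0.70 did not pass the threshold (edgeR, adjusted p = 0.329). It was 2.03 without DMSO library 1 and 0.62 without forskolin library 4. Without library 6 it was 1.65 and again not called by the same fit, but Pdyn was called higher when the GC trend was also removed, when libraries were also scaled to pan-neuronal genes, and by limma with library quality weights on all 6 libraries. Crh had 8, 8 and 8 counts with DMSO and 8, 11 and 2 with forskolin and was not tested.

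Among calcium-binding proteins, Pvalb, which marks fast-spiking basket cells, was at 4.93, 5.05 and 4.74 CPM with DMSO and at 11.8, 14.9 and 5.05 CPM with forskolin. The DMSO libraries were nearly equal, the mean of libraries 4 and 5 was 2.72 times the DMSO mean, and library 6 was level with DMSO, so that the log2 fold change was 1.11 ± 0.38 (edgeR, adjusted p = 0.171). Without library 6 it was 1.43, and Pvalb and Trp73 (0.93) were the 2 genes called higher. Calb2 ranged from 98.6 to 120 CPM with DMSO and from 45.0 to 107 CPM with forskolin, with library 6 inside the DMSO range (-0.68 ± 0.31, edgeR adjusted p = 0.253), and was called lower without library 6. Calb1, the calbindin gene of granule cells and some interneurons, overlapped between groups (0.00 ± 0.25, edgeR adjusted p = 0.998). The neuregulin receptor Erbb4, the serotonin receptor subunit Htr3a and the secreted factor Ndnf overlapped as well, with log2 fold changes from -0.24 to 0.30.

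**Figure D4:**
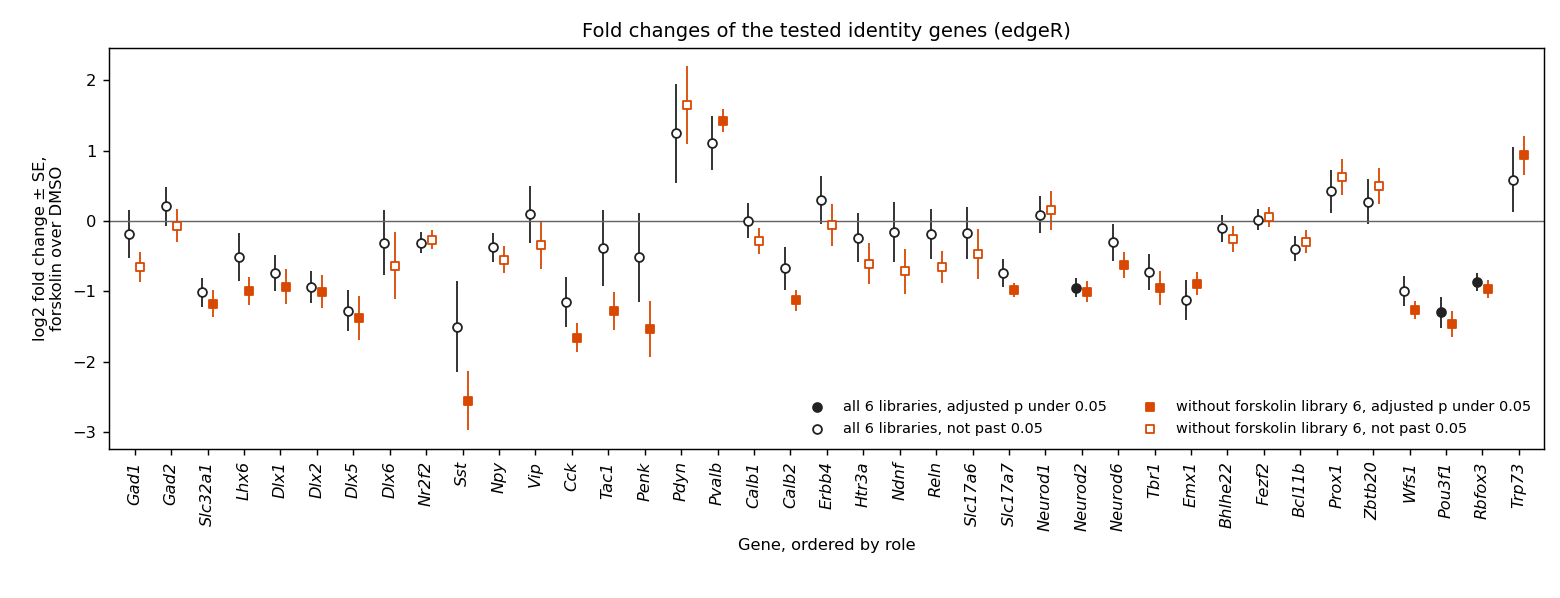
Log2 fold change of forskolin over DMSO ± SE (y axis) for the 39 tested genes (x axis, ordered by role), with all 6 libraries (black circles) and without forskolin library 6 (orange squares); filled symbols have an edgeR adjusted p under 0.05. Only Neurod2, Pou3f1 and Rbfox3 are filled with all libraries, and without library 6 there are 18 filled below 0 and 2 above it.

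GC content moved with the result across the set. The genes were split at a transcript GC content of 55%, chosen after the data were seen. At or above it, 9 of 13 genes lay lower without overlap, and below it 3 of 26. Over all tested genes the same split gave 44.4% and 8.17%, so the split ran through all genes. Pou3f1 (63.9%), Neurod2 (58.7%) and Rbfox3 (58.6%) are all above it. The part of GC content in these differences was not tested beyond the fit with its trend removed, in which the median of the set was -0.43 against -0.066 over all tested genes. In that fit 34 of 39 genes were negative, 6 were lower and 1 higher at an unadjusted p under 0.05, and edgeR called 0 genes of the whole table (891 lower and 924 higher at an unadjusted p under 0.05).

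Other genes of the same cell classes were read in the same fit, beside the 1.34% of all tested genes called lower and 0.172% called higher. Of 21 further GABAergic genes 20 were tested, 1 was called lower and 0 higher (DESeq2 called 3 lower, and edgeR with RLE factors 0), with a median log2 fold change of -0.31. The gene called was Elfn1, a synaptic protein of somatostatin interneurons, which was at 27.4, 36.1 and 37.7 CPM with DMSO and at 12.7, 15.9 and 18.2 CPM with forskolin and fell by 1.12 (SE 0.19, edgeR adjusted p = 0.0465). Of 17 further glutamatergic genes 16 were tested, with 2 called lower, 0 higher (4 and 1 with DESeq2) and a median of -0.54. Nrgn, the calmodulin-binding protein neurogranin, was at 109, 146 and 113 CPM with DMSO and at 50.7, 59.1 and 47.1 CPM with forskolin (log2 fold change -1.23 ± 0.16, edgeR adjusted p = 0.0306). C1ql2, a secreted C1q-like protein of dentate granule cells, was at 24.3, 25.7 and 22.4 CPM with DMSO and at 9.75, 13.0 and 9.62 CPM with forskolin (-1.16 ± 0.16, edgeR adjusted p = 0.0371). In both, library 6 was the lowest of all. Of the 14 pan-neuronal genes 0 were called in either direction, with a median of -0.38, 5 of them lower and 0 higher at an unadjusted p under 0.05 (11.7% and 10.6% of all tested genes) and 2 called lower by DESeq2 (5.83%). Of the 11 tested microglial genes edgeR called 0, while 10 were higher at an unadjusted p under 0.05 and DESeq2 called 10 higher, against 10.6% and 4.71% of all tested genes. Without library 6 the same test called 9 lower and 1 higher of the 20 GABAergic genes, 10 lower and 1 higher of the 16 glutamatergic genes, 8 lower of the 14 pan-neuronal genes and 11 higher of the 12 microglial genes then tested, where 17.1% and 16.5% of all tested genes were called lower and higher.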

How the data were processed

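The 41 genes, the gene lists and the alternatives were chosen with earlier results of these data known. The authors deposited whole-number counts per gene symbol, 1 column per library; Salmon, DESeq and GRCm38 are named in the submitters' processing notes, and how the counts became whole numbers and the strand setting are not given in the sources used here. A second deposited table holds the authors' own comparison: per the file headers, its columns are a mean signal (normalised counts), log2 fold changes and their errors, a score for the test, and p-values, raw and adjusted. It was used only for membership and its smallest fold change.

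In R 4.3.3, edgeR 4.0.16 was used with TMM factors, filterByExpr (minimum count 10, minimum total 15, leaving 16233 genes), a model of intercept and group, the quasi-likelihood test, and Benjamini-Hochberg adjustment over all tested genes at 0.05. The fit was tested on simulated data. CPM is per TMM-scaled library. Crh and Lhx1 did not pass the filter. SE is the absolute log2 fold change over the square root of the F statistic. For low genes counting error adds to the spread between libraries.

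GENCODE M21 (GRCm38), matched by symbol for 96.7% of genes, gave positions, longest transcripts and GC content; promoter windows are RefSeq's. Per-kilobase levels depend on that transcript choice, so Zbtb20, with a longest transcript of 26.9 kb, is low on that scale. A permutation test planned for the transmitter ratio is not reported.

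Alternatives were DESeq2 1.42.0, limma 3.58.1 voom with library quality weights, other scalings and filters, a loess correction for GC content (span 0.3), other forms of the ratio, and leaving libraries out. Leaving out libraries 4 and 5 together, scaling to pan-neuronal genes without library 6, and exon length were added after the data were seen. Values in every library are given for the transmitter, Cajal-Retzius and neuropeptide genes, called genes, and up to 10 others with the largest absolute log2 fold change among those without overlap or with an unadjusted p under 0.05; the rest are given by range. Genes outside the set are named if called, up to 3 a list by p; others, such as Lhx5, Nhlh2, Aqp4 and Glul, were chosen after their values were seen.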

Additional observations from a re-analysis of the deposited data

How the results depend on the processing

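No paired analysis was possible because no replicate number occurs in both groups. Over all tested genes 245 were called, and 3 of the 41 genes as lower and 0 as higher. In the order all genes, subtype genes higher, subtype genes lower, the counts were 1711, 1 and 10 with DESeq2, 6795, 3 and 21 with library quality weights, 137, 0 and 1 with RLE factors, 0, 0 and 0 with scaling to pan-neuronal genes, 0, 0 and 0 with the GC trend removed, 7057, 3 and 25 with that trend removed and library 6 left out, 94, 0 and 1 without libraries 4 and 5, and 7453, 8 and 5 with pan-neuronal scaling and without library 6. Leaving out 1 library gave 0 to 5698, 0 to 2 and 0 to 18, the upper values without library 6 and all the others 0 (edgeR; at an unadjusted p under 0.05, 785 to 1679 genes higher and 942 to 1537 lower). Library size alone, no filter, and a mean CPM of at least 1 kept the counts within 1.5 times; without a filter Pou3f1 was not called, and Dlx6 drops out at the CPM minimum. Where libraries 4 and 5 were left out, the lone forskolin library was assumed to vary like the DMSO group. The ratio difference of 0.49 ran from 0.33 to 0.64 with 1 library left out and was 0.084 with geometric means, 0.15 with the GC trend removed and library 6 left out, 0.22 with that trend removed alone, 0.57 without Slc32a1 and 0.74 without libraries 4 and 5. The causes were not tested.

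Log2 fold changes that changed sign were the following. Without libraries 4 and 5 they were Fezf2 -0.048, Neurod1 -0.049, Prox1 -0.12, Zbtb20 -0.32, Pdyn -0.34, Trp73 -0.60, Bhlhe22 0.16, Lhx6 0.17, Neurod6 0.20, Dlx6 0.22, Slc17a6 0.30, Htr3a 0.33, Gad1 0.47, Reln 0.49, Penk 0.54, Ndnf 0.57 and Tac1 0.59. With pan-neuronal scaling they were Bcl11b 0.017, Neurod6 0.033, Dlx6 0.064, Htr3a 0.088, Nr2f2 0.10, Gad1 0.12, Reln 0.13, Ndnf 0.15, Slc17a6 0.20 and Bhlhe22 0.26. Leaving out library 6 as well gave Htr3a 0.014, Dlx6 0.015, Npy 0.055, Slc17a6 0.17, Bcl11b 0.28, Nr2f2 0.33 and Bhlhe22 0.34. With the GC trend removed they were Gad2 -0.019, Zbtb20 -0.063, Erbb4 -0.074, Neurod1 -0.20, Vip -0.36 and Calb1 -0.60, and without library 6 too Neurod1 -0.24, Gad2 -0.41, Erbb4 -0.63, Vip -1.07 and Calb1 -1.25. With library size alone they were Neurod1 -0.022, Fezf2 -0.078 and Calb1 -0.10, and with quality weights Calb1 -0.21 and Vip -0.37. Leaving out 1 library turned 12 genes, whose ranges were Gad1 -0.65 to 0.11, Gad2 -0.068 to 0.46, Vip -0.34 to 0.38, Calb1 -0.29 to 0.21, Erbb4 -0.056 to 0.65, Htr3a -0.61 to 0.080, Ndnf -0.72 to 0.20, Reln -0.66 to 0.12, Slc17a6 -0.47 to 0.049, Neurod1 -0.13 to 0.28, Bhlhe22 -0.26 to 0.060 and Fezf2 -0.061 to 0.10. None of these genes was called by edgeR with TMM factors and all libraries; with library quality weights Gad1, Lhx6, Npy, Tac1, Penk, Reln and Neurod6 were called lower and Pdyn and Trp73 higher. With the GC trend removed and library 6 left out Vip, Calb1 and Erbb4, positive with all libraries, were called lower. So were Gad1, Lhx6, Npy, Tac1, Penk, Reln, Ndnf, Nr2f2 and Neurod6, with Pdyn and Trp73 higher. With pan-neuronal scaling and without library 6 Gad2, Neurod1, Fezf2, Prox1, Zbtb20, Pdyn and Trp73 were called higher, as were 43.0% of all tested genes.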

Other observations

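The genes named here that are not among the 41 were chosen after their values were seen. While C1ql2 fell, as given above, C1ql3, another C1q-like gene of dentate granule cells, was at 21.2, 17.7 and 26.2 CPM with DMSO and at 36.9, 42.6 and 29.0 CPM with forskolin. Every forskolin library was above every DMSO library for C1ql3, and its log2 fold change was 0.74 ± 0.20 (edgeR, adjusted p = 0.125). It was called higher by DESeq2, by limma with library quality weights, and by edgeR without library 6. Transcript GC content was 63.35% for C1ql2 and 53.1% for C1ql3. Over all tested genes 44.4% lay lower without overlap at or above 55% GC, and 8.17% below it. With the GC trend removed and all libraries kept, edgeR called 0 genes. With library 6 left out too, it called C1ql2 lower and C1ql3 higher, where 29.2% and 12.5% of all tested genes were. Pcp4, a calmodulin-binding protein of CA2 and granule cells, was also higher in every forskolin library, at 16.2, 18.1 and 19.0 CPM against 15.1, 13.2 and 10.4 CPM (0.46 ± 0.18, edgeR adjusted p = 0.195).

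Cort, the cortistatin gene, which is related to Sst, was at 3.997, 7.42 and 5.69 CPM with DMSO and at 1.55, 1.35 and 3.97 CPM with forskolin, with library 6 just under DMSO library 1 (-1.32 ± 0.47, edgeR adjusted p = 0.181). The log2 ratio of Gad2 to Slc17a7 CPM was -3.93, -3.67 and -3.0004 with DMSO and -2.61, -2.55 and -2.50 with forskolin, without overlap, a pair chosen after its values were seen. That of Gad1 to Slc17a7 was -2.02, -1.69 and -1.45 with DMSO and -1.17, -1.64 and -0.90 with forskolin and overlapped. The ratio of Slc32a1 to Slc17a7 was -4.84, -4.44 and -4.45 with DMSO and -4.59, -4.97 and -4.96 with forskolin, with overlap. After removal of the GC trend, Gad2, Slc32a1 and Slc17a7 had log2 fold changes of -0.019, -0.38 and -0.51, so that the gap between Gad2 and Slc17a7 was smaller and Slc32a1 was no longer below Slc17a7.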
